A study of Homo sapiens with 6 samples.

Results

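Integrins and the focal adhesion proteins that join them to the actin cytoskeleton were followed after knockdown of ERCC6L in 786-O, a human cell line of renal cell carcinoma in wide use. ERCC6L, also called PICH, is a DNA translocase of mitotic chromosomes. The members are 35 genes named by family and function: 21 integrin subunits and 14 focal adhesion proteins. A gene was measured where a probe set of the array carried its symbol and no other, which held for 34 of the 35 genes and gave 117 of 44988 such probe sets. ITGB6 had no such probe set and is not analysed here. There were 6 single-channel Affymetrix arrays in 2 groups. The shNC group (3 arrays) came from 786-O cells with the negative control short hairpin RNA. The shERCC6L group (3 arrays) came from 786-O cells with a short hairpin RNA (shRNA) against ERCC6L. Per the labels, the shRNAs were brought in by lentivirus, and both groups grew in RPMI medium with serum. The number of hairpins, and whether replicates were separate infections or cultures, are not given in the labels, so the p-values rest on a spread among arrays that may be technical alone.

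Integrins are heterodimers of an alpha and a beta subunit that span the plasma membrane and bind extracellular matrix outside the cell. Inside the cell, talin and kindlin bind the beta tail and switch the receptor to its active form, and vinculin, tensin, and the complex of integrin-linked kinase (ILK) with PINCH and parvin strengthen the link to actin. Focal adhesion kinase and the scaffold p130Cas, together with paxillin, pass on signals from the clustered receptors. Kidney epithelial cells use these receptors to hold on to the tubular basement membrane.

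The values are linear probe set signals, and each gene is represented by its probe set with the highest mean, unless every probe set is named. Signals of different genes cannot be set against each other, because probes differ in brightness. Log2 fold changes are of (signal + 16), shERCC6L over shNC, and understate the change of dim genes. A gene was called where limma's p, after Benjamini-Hochberg adjustment across the 18132 genes tested, was under 0.05. The median signal per array lay between 60.0 and 61.6. ERCC6L itself was lower on every shERCC6L array, with signals of 97.59, 97.49 and 97.83 against 239.9, 244.3 and 261.4 in shNC. All 7 measured renal epithelial markers reached the median level of all genes, PAX8 and KRT8 among them. The leukocyte marker PTPRC, at mean signals of 7.31 and 7.21, was near the lowest values of the table, and PTPRC, CD3E and CD14 were not called. Of the other leukocyte markers, CD68, a lysosomal protein of macrophages, was higher, with mean signals of 127 in shNC and 152 in shERCC6L (limma adjusted p = 0.011). LCP1, an actin-bundling plastin, was lower, with 116 and 85.7 (limma adjusted p = 7.8e-05). The summed signal of the 5 leukocyte markers was 278.0 to 304.4 on the shNC arrays and 279.7 to 288.4 on the shERCC6L arrays. That of the 6 endothelial markers was 272.3 to 284.4 and 258.7 to 262.9, and that of the 6 fibroblast markers 193.1 to 199.9 and 165.9 to 168.5. Of the 6 fibroblast markers, all below the median level, 2 (33.3%) were called lower and 0 higher, beside 13.4% and 18.2% of all genes. COL1A1, a collagen gene, fell, with mean signals of 74.5 and 53.3, on 1 of its 5 probe sets. PDGFRA fell from 42.5 to 36.7, on 1 of 4 probe sets. LUM went the other way, from 25.9 to 29.1, and was not called. The part of these shifts in the results below was not tested.

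Of the 34 measured members, 13 were lower and 5 higher in shERCC6L. As a share, 38.2% of the members were called lower, beside 13.4% of all genes, and 14.7% were called higher, beside 18.2% of all genes. Among the 21 members at or above the median level of all genes, 9 (42.9%) were lower and 5 (23.8%) higher, beside 19.6% and 32.8% of all genes at that level. The focal adhesion proteins gave most of the falls, with 8 lower and 2 higher of 14, while the integrin subunits gave 5 lower (25%) and 3 higher (15%) of 20. At or above the median level, 2 of 9 subunits (22.2%) were lower and 3 (33.3%) higher, near the shares of all genes there. Of the 12 focal adhesion proteins at that level, 7 (58.3%) were lower and 2 (16.7%) higher. The median log2 fold change was -0.13 for the focal adhesion proteins, -0.04 for the subunits and -0.01 for all genes. The groups did not overlap for 22 of the 34 members (64.7%), beside 43.4% of all genes. Of the 21 members at that brighter level 18 did not overlap (85.7%), beside 64.5% of all genes that bright. The changes were small: 1 member, PARVA, was called with a change of at least 1.5-fold, as were 2.08% of all genes in either direction. Without shERCC6L replicate 2 the count of lower members went from 13 to 7, beside 10.5% of all genes called lower in that comparison, and without shNC replicate 1, shNC replicate 3 or shERCC6L replicate 3 the count of higher members went from 5 to 3. In bulk RNA, fewer cells that express a gene and less of its RNA per cell cannot be told apart.

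**Figure D1:**
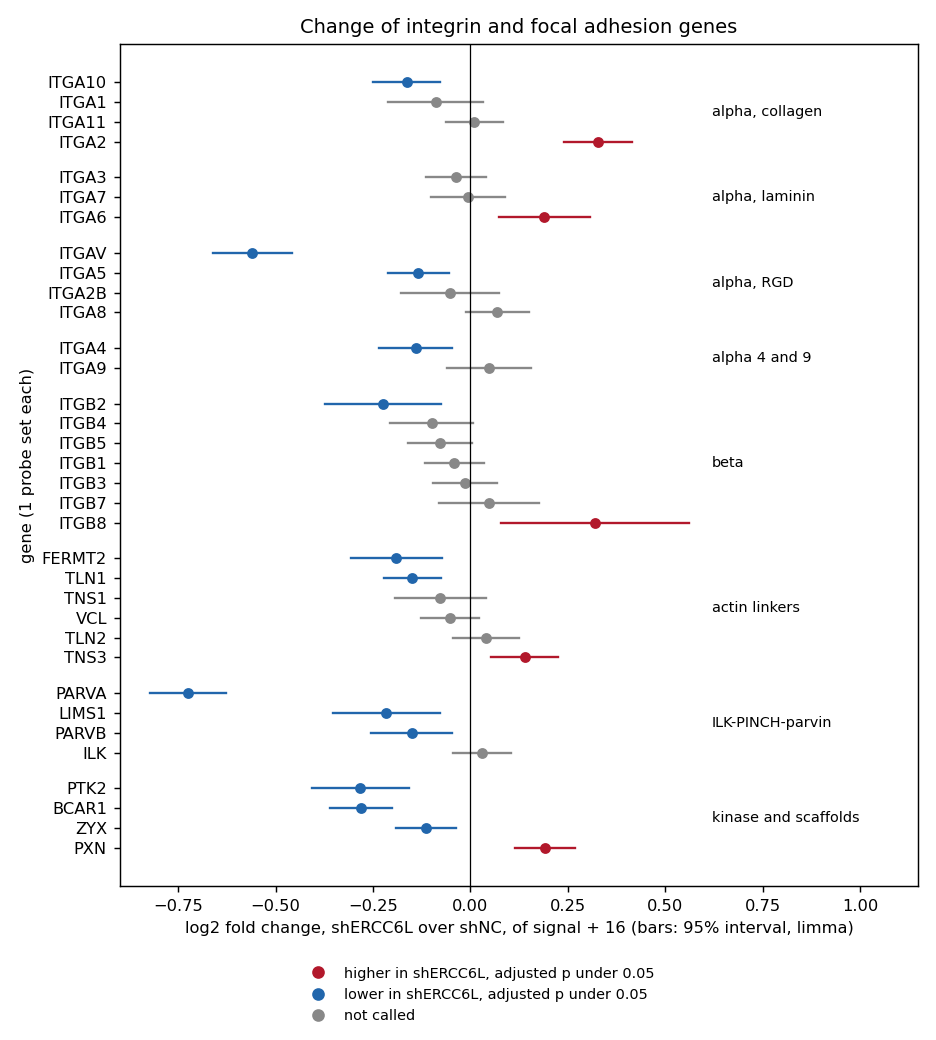
Log2 fold change (shERCC6L over shNC, of signal + 16; horizontal axis) of the 34 measured genes, ordered by role, with limma's 95% interval as bars and 3 arrays per group. PARVA (-0.73) and ITGAV (-0.56) lie farthest to the left, and ITGA2 (0.33) and ITGB8 (0.32) farthest to the right.

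Among the alpha subunits that recognise the RGD motif of fibronectin and vitronectin, both bright members fell. ITGAV, which encodes the common alpha partner of the vitronectin receptors, read 1751, 1814 and 1730 in shNC and 1192, 1131 and 1257 in shERCC6L. Every shERCC6L array lay well below every shNC array, and the change was 1.47-fold lower, a log2 fold change of -0.56 ± 0.04 (SE, n = 3 per group; limma adjusted p = 2.1e-05). All 5 of its probe sets fell, by 0.45 to 0.71 on the log2 scale. ITGA5, the alpha chain of the classical fibronectin receptor, read 346.1, 358 and 338.9 in shNC and 315.6, 314.7 and 316.3 in shERCC6L. These groups also did not overlap, but the change was smaller, at -0.13 ± 0.03 (limma adjusted p = 0.016), and 2 of its 4 probe sets passed. ITGA5 missed the threshold without shNC replicate 2 or shERCC6L replicate 2, with adjusted p-values up to 0.054. ITGA2B, the platelet alpha chain, and ITGA8, an alpha chain of kidney development, stayed below the median level and were not called, at -0.05 and 0.07.

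The upstream sequences of 4 members are shown from RefSeq's promoter table (GRCh38.p14), chosen after their values were seen. ITGAV and ITGA2 had the largest fall and the largest rise among the integrin subunits, and ITGA5 and BCAR1 are members at or above the median level that fell and held a motif match. PARVA and PTK2 had no entry. Each sequence is the 250 bases before the first listed start, 5′ to 3′ on the gene's strand, with motif matches in capitals.
ITGAV (chr2:186589806-186590055, plus strand): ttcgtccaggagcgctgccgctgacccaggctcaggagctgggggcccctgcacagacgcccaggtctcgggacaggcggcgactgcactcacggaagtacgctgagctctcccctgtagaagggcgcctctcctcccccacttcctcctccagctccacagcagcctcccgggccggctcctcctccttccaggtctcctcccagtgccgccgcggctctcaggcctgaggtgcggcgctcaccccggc
ITGA5 (chr12:54419267-54419516, minus strand): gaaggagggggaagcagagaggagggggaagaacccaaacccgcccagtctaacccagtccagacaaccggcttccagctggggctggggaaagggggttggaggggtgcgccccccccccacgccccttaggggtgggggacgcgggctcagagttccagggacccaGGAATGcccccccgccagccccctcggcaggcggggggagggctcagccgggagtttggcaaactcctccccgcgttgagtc
BCAR1 (chr16:75268008-75268257, minus strand): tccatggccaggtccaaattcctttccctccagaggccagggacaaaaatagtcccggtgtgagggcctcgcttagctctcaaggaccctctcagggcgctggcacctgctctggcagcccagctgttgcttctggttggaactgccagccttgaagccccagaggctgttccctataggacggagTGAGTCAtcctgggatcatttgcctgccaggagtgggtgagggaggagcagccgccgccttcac
ITGA2 (chr5:52989102-52989351, plus strand): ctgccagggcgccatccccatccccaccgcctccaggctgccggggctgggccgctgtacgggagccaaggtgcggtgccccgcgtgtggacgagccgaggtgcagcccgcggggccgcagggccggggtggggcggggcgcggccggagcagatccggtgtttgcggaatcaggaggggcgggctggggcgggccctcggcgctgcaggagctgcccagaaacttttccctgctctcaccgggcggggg

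Both strands were searched for the core site of TEAD factors (GGAATG), through which YAP1 acts, for the site of AP-1 (TGANTCA) and for the CArG box of serum response factor, which drives many adhesion genes. Of the 26 members with an entry, 4 held GGAATG: ITGA5 and ITGA10, which fell, and ITGB1 and VCL, which were not called. That is 15.4% of the members, beside 11.9% of the 27305 genes in the table. In ITGA5 the match lies 82 to 77 bases before the start. The AP-1 site was found in 1 of the 26, BCAR1, 64 to 58 bases before its start, and in 6.60% of all genes. The CArG box was found in 0 of the 26 members and in 1.14% of all genes. ITGAV and ITGA2 held none of the 3 motifs in this window.

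The alpha subunits for collagen and laminin gave 2 rises. ITGA2, the alpha chain of a collagen receptor of epithelial cells, read 92.26, 84.64 and 88.34 in shNC and 115.4, 117.5 and 112.3 in shERCC6L. All shERCC6L arrays were above all shNC arrays, with a log2 fold change of 0.33 ± 0.04 (SE, n = 3 per group; limma adjusted p = 2.0e-04), and the second ITGA2 probe set also rose, by 0.24. ITGA1, another collagen receptor chain, lies close to ITGA2 on chromosome 5 and was not called, at -0.09 (95% interval -0.21 to 0.03), on a dim probe set. ITGA6, a laminin receptor chain, read 664.7, 708 and 675.4 in shNC and 762.8, 741 and 842.5 in shERCC6L. Its groups did not overlap, its log2 fold change was 0.19 ± 0.05 (limma adjusted p = 0.019), and 2 of its 3 probe sets rose. The ITGA6 call was lost without shNC replicate 1 or shNC replicate 3, where adjusted p reached 0.067. ITGA3, the other bright laminin receptor chain, read 1411, 1416 and 1430 in shNC and 1403, 1401 and 1345 in shERCC6L. The groups were separate but close, and the change of -0.04 (95% interval -0.11 to 0.04) was not called.

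The dim alpha chains gave 2 further falls that depended on the probe set. ITGA10, a collagen receptor chain of cartilage, was lower at -0.16 ± 0.04 (limma adjusted p = 0.0097) on its brightest probe set, but the other 2 did not pass, and with all 3 averaged the change was -0.02. ITGA4, a chain of leukocyte integrins, fell by 0.14 ± 0.04 (limma adjusted p = 0.029) from a mean signal of 30.2 to 25.9. With its 5 probe sets averaged ITGA4 turned to 0.03 and was not called. It also missed the threshold with quantile normalization and without shNC replicate 3 or any one of the shERCC6L arrays. ITGA7, ITGA9 and ITGA11, chains of muscle, epithelial and mesenchymal integrins, were dim and not called, at -0.01, 0.05 and 0.01.

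Of the 7 measured beta subunits 1 (14.3%) was higher and 1 (14.3%) lower, near the 18.2% and 13.4% of all genes. ITGB1, the partner of most alpha chains, read 8893, 9088 and 9124 in shNC and 8805, 8600 and 8943 in shERCC6L. The groups overlapped, and the change of -0.04 (95% interval -0.12 to 0.04) was not called on this or on any of its other 4 probe sets. ITGB5, a partner of ITGAV, read 1458, 1393 and 1435 in shNC and 1376, 1366 and 1316 in shERCC6L. Each shERCC6L array lay below each shNC array, yet the change of -0.08 ± 0.04 was not called (limma adjusted p = 0.14). ITGB8, a partner of ITGAV in the activation of latent TGF-beta, read 583.8, 735.6 and 625.7 in shNC and 747.7, 741 and 955.5 in shERCC6L. The groups did not overlap by a narrow margin, at a log2 fold change of 0.32 ± 0.11 (limma adjusted p = 0.048). This call was lost without shNC replicate 1, shNC replicate 3 or shERCC6L replicate 3, with a pseudocount of 1 or 32, and where every probe set was tested, with adjusted p-values up to 0.15 over the alternatives. With its 4 probe sets averaged the ITGB8 change was 0.17 and was called. Of the 3 dimmer ITGB8 probe sets, 2 rose, by 0.19 and 0.21.

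ITGB3, the beta chain of the classical vitronectin receptor, depended on the probe set. Its brightest one read 391.2, 379.9 and 370.9 in shNC and 367.6, 382.2 and 380.9 in shERCC6L, an overlap with a change of -0.01 that was not called. The next one read 385, 364.9 and 387.3 in shNC and 303.6, 297.5 and 279.7 in shERCC6L. That probe set separated the groups and fell by 0.35 ± 0.04 (limma adjusted p = 3.2e-04 over all probe sets). In all 3 of the 7 ITGB3 probe sets fell, by 0.26 to 0.35, and 0 rose. With the 7 averaged the change was -0.13 (limma adjusted p = 0.0056). ITGB2, the leukocyte beta chain, was dim, overlapped between the groups and was called lower at -0.22 ± 0.07 (limma adjusted p = 0.029). The ITGB2 call ended with a replicate block and without shNC replicate 1, shNC replicate 3, shERCC6L replicate 1 or shERCC6L replicate 3. ITGB4, the hemidesmosome partner of ITGA6, and ITGB7, a lymphocyte chain, were not called, at -0.10 and 0.05.

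**Figure D2:**
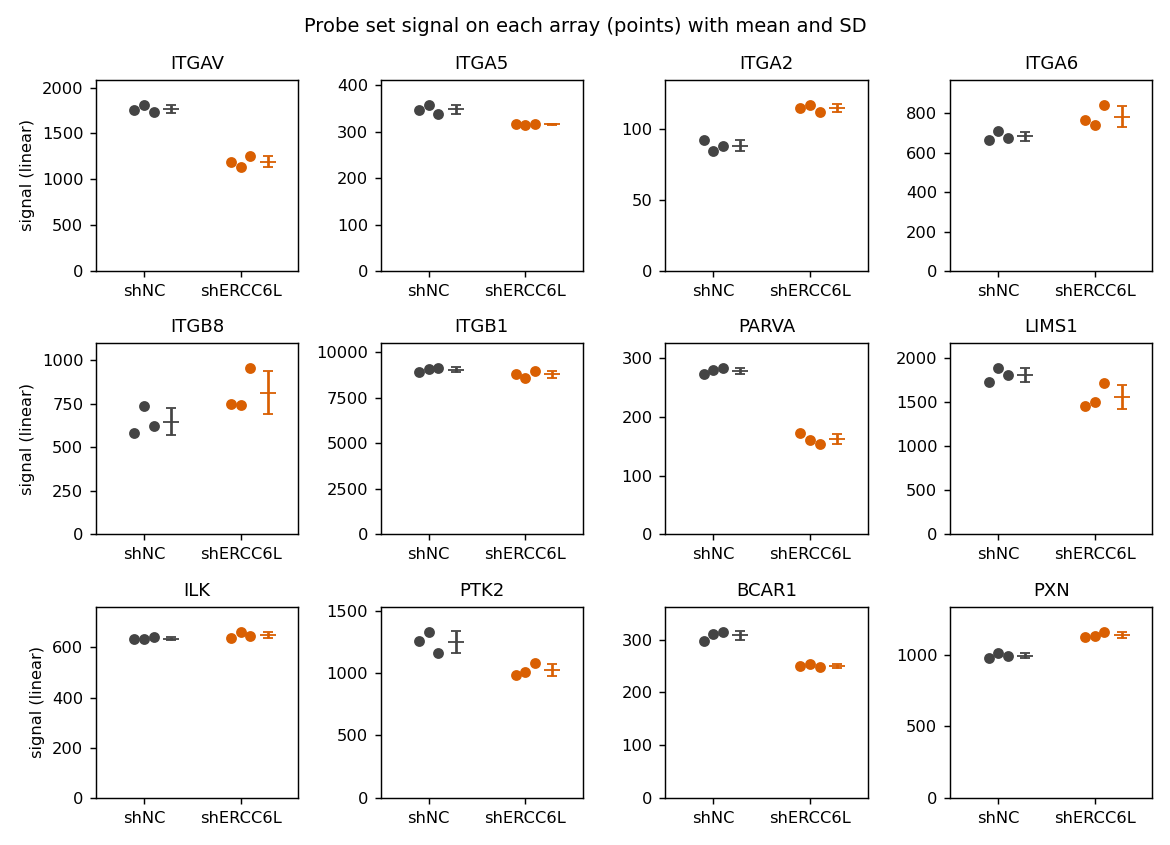
Linear signal (vertical axis, from 0) of 12 genes on each of the 3 shNC arrays (dark points) and 3 shERCC6L arrays (orange points), with the group mean and SD beside them. The groups are apart for ITGAV, ITGA5, ITGA2, ITGA6, ITGB8, PARVA, LIMS1, PTK2, BCAR1 and PXN, and they overlap for ITGB1 and ILK.

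The 4 genes of the ILK, PINCH and parvin complex changed unequally. PARVA, which encodes alpha-parvin, the actin-binding arm of the complex, read 272.9, 280.3 and 283.1 in shNC and 172.1, 161.3 and 154 in shERCC6L. This was the largest change among the members, 1.65-fold lower, with clearly separate groups and a log2 fold change of -0.73 ± 0.04 (SE, n = 3 per group; limma adjusted p = 3.8e-06). All 4 PARVA probe sets fell, by 0.54 to 0.79. LIMS1, the adaptor PINCH that joins ILK to other proteins, read 1733, 1885 and 1804 in shNC and 1457, 1503 and 1712 in shERCC6L. The highest shERCC6L array came close to the lowest shNC array, and the change was -0.22 ± 0.06 (limma adjusted p = 0.024). All 6 LIMS1 probe sets fell, by 0.17 to 0.26, but the gene has near-identical copies whose signal may not be separable. Without shNC replicate 2, shNC replicate 3, shERCC6L replicate 1 or shERCC6L replicate 2, LIMS1 missed the threshold, at adjusted p-values up to 0.088. PARVB, the paralog beta-parvin, fell by 0.15 ± 0.05 (limma adjusted p = 0.033) on its single dim probe set. It missed the threshold without shNC replicate 1, shNC replicate 2, shERCC6L replicate 2 or shERCC6L replicate 3 and with an intensity trend. ILK, the pseudokinase at the centre, read 634.4, 631.6 and 640 in shNC and 638.4, 662.9 and 647 in shERCC6L. Its groups overlapped, and its change of 0.03 (95% interval -0.04 to 0.11) was not called.

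Of the focal adhesion kinase and its scaffolds, 3 (75%) fell and 1 (25%) rose. All 4 were at or above the median level, where 19.6% of all genes were lower and 32.8% higher. PTK2, the focal adhesion kinase gene, read 1256, 1332 and 1161 in shNC and 985.2, 1010 and 1077 in shERCC6L, with no overlap. The change of PTK2 on the log2 scale was -0.28 ± 0.06 (SE, 3 arrays per group; limma adjusted p = 0.0038), and all 3 probe sets fell. BCAR1, which encodes p130Cas, a substrate that the kinase and SRC phosphorylate, read 298.4, 310.7 and 315.5 in shNC and 250, 255 and 247.6 in shERCC6L. The shERCC6L arrays were all lower, and BCAR1 fell by 0.28 ± 0.04 (limma adjusted p = 3.0e-04), on 4 of 5 probe sets. All 5 are of a type whose probes may also match other transcripts (suffix _x_at). PXN, the adaptor paxillin, went the other way, from 979.9, 1015 and 987.3 in shNC to 1120, 1129 and 1161 in shERCC6L. All shERCC6L arrays were higher, at 0.19 ± 0.03 (limma adjusted p = 0.0023), and 5 of the 10 PXN probe sets rose and 0 fell. With its probe sets averaged the PXN change was 0.10 and was still called. ZYX, the LIM protein zyxin of mature adhesions, fell by 0.11 ± 0.03 (limma adjusted p = 0.030) on 1 of 2 probe sets. The ZYX call was lost with a replicate block and under a pseudocount of 1. It was also lost without shNC replicate 1, shNC replicate 3, shERCC6L replicate 2 or shERCC6L replicate 3.

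Of the 6 proteins that link the beta tail to actin, 2 (33.3%) were lower and 1 (16.7%) higher, beside 13.4% and 18.2% of all genes. TLN1, the ubiquitous talin, read 226.4, 234.4 and 231.3 in shNC and 205, 206 and 208.3 in shERCC6L. Each shERCC6L array was below each shNC array, at -0.15 ± 0.03 (SE, n = 3 per group; limma adjusted p = 0.0067), and the other TLN1 probe set fell by 0.33. With both averaged TLN1 fell by 0.24. FERMT2, the kindlin of most adherent cells, read 1030, 1061 and 1013 in shNC and 858.9, 877.2 and 981.7 in shERCC6L. The groups were separate, and the change was -0.19 ± 0.05 (limma adjusted p = 0.020), on 2 of 4 probe sets. FERMT2 missed the threshold without shNC replicate 2, shERCC6L replicate 1 or shERCC6L replicate 2. TNS3, a tensin, rose by 0.14 ± 0.04 (limma adjusted p = 0.021) on its brightest probe set, from a mean signal of 992.3 to 1094. Neither of its other 2 probe sets passed, the averaged change was 0.01, and the call was lost without shNC replicate 2, shERCC6L replicate 2 or shERCC6L replicate 3. VCL, vinculin, read 4398, 4548 and 4467 in shNC and 4315, 4264 and 4356 in shERCC6L. Its groups were apart by little, and the change of -0.05 (95% interval -0.13 to 0.02) was not called. TLN2, the second talin, and TNS1, another tensin, were not called, at 0.04 and -0.08.

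Changes were also compared between members of a family or a heterodimer, as the difference of their log2 signals on each array. Of the 9 pairs that could be formed, 8 separated the groups without overlap. With 3 arrays a side the exact permutation test (2-sided) cannot give a p under 0.1. All 8 had this exact permutation p, or 0.1125 adjusted over the 9 pairs. Each of the 8 holds a called member whose own groups did not overlap, as held for 43.4% of all genes. The separation of a pair is therefore no further evidence. PARVA fell further than PARVB, with a difference of -0.57 ± 0.06 (SE). ITGAV fell further than its partner ITGB5, by a difference of -0.48 ± 0.07. ITGA1 against ITGA2 differed by -0.42 ± 0.05, and ITGA3 against ITGA6 by -0.23 ± 0.08. The difference was 0.29 ± 0.11 for ITGA6 against its partner ITGB4, -0.22 ± 0.08 for TNS1 against TNS3, -0.19 ± 0.04 for TLN1 against TLN2 and -0.09 ± 0.03 for ITGA5 against ITGB1. ITGB5 and ITGB3 overlapped in their difference of -0.06 ± 0.04 (exact permutation p = 0.3). That value turned to 0.05 with probe sets averaged. The same averaging took TNS1 against TNS3 to -0.04 and ITGA5 against ITGB1 to -0.06, both with overlapping groups (exact permutation p = 0.3). Without shERCC6L replicate 3 the difference of ITGB5 and ITGB3 was -0.04.

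Probe sets of 1 gene did not contradict each other among those that passed. Adjusted over all 44988 probe sets, 36 of the 117 were lower (30.8%, beside 12.0% of all probe sets) and 12 higher (10.3%, beside 17.0%). Probe sets of a gene share its RNA and are not independent. Of the 27 members with several probe sets, 5 had every one lower (ITGAV, TLN1, LIMS1, PARVA and PTK2) and 1 had every one higher (ITGA2). In 0 genes did 1 probe set pass as higher and another as lower. For 11 members the brightest probe set has the suffix _s_at, and for 4 the suffix _x_at, by which Affymetrix marks probes that may also match other transcripts.

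**Figure D3:**
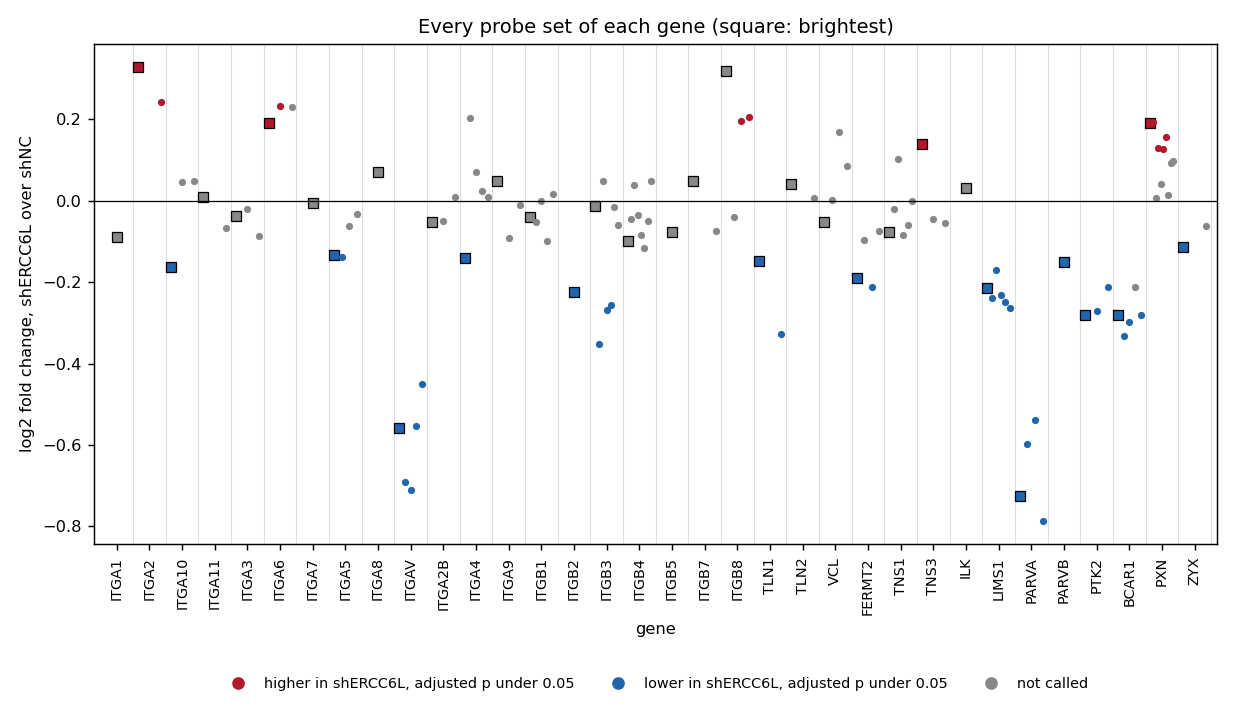
Log2 fold change (vertical axis) of each of the 117 probe sets by gene, with a square for the brightest and colour for the call adjusted over all probe sets. All probe sets of ITGAV, PARVA, LIMS1 and PTK2 lie below 0, ITGB3 divides into 3 that fell and 4 near 0, and the brightest ITGB8 probe set was not called in this comparison.

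The same cells were examined for 110 other measured genes of integrin adhesion, chosen by role with earlier results of these data known. These genes are therefore no independent support for the members. Of these 40 (36.4%) were lower and 13 (11.8%) higher, beside 13.4% and 18.2% of all genes, with a median log2 fold change of -0.06. Among the 89 of them at or above the median level, 37 (41.6%) were lower and 13 (14.6%) higher, beside 19.6% and 32.8% of all genes at that level. The 29 ligands and matrix-associated genes had 14 (48.3%) lower and 2 (6.9%) higher. FBN1, the RGD-bearing fibrillin, fell by 0.91 ± 0.04 (log2, SE; limma adjusted p = 6.1e-07), and with its 5 probe sets averaged by 0.39. EDIL3, a secreted RGD ligand of ITGAV receptors, fell by 0.64 ± 0.08, and with its probe sets averaged by 0.48. FN1, fibronectin, the ligand of ITGA5, fell by 0.21 on all 8 of its probe sets. VCAM1, a ligand of ITGA4 integrins, fell by 0.25, and THBS1, thrombospondin, by 0.29, the latter on 3 of 5 probe sets. LAMB3 and LAMB1, laminin beta chains, were the ligands that rose, by 0.29 and 0.15.

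Among 26 other adaptors 9 (34.6%) were lower and 4 (15.4%) higher, beside 13.4% and 18.2% of all genes. TGFB1I1, a paralog of paxillin, fell by 0.50 and TRIP6, a relative of zyxin, by 0.49. NEDD9, the paralog of BCAR1, fell by 0.41, on 3 of 4 probe sets. Its partner DOCK1, an activator of RAC1, fell by 0.35, on 1 of 2 probe sets. GIT2, a paxillin-binding regulator of ARF GTPases, rose by 0.57 ± 0.05 (limma adjusted p = 3.4e-05), and by 0.21 with its 7 probe sets averaged. PPFIA1, a liprin of adhesion sites, rose by 0.23, and KANK1, which binds talin, by 0.22. With probe sets averaged PPFIA1 rose by 0.14 and KANK1 by 0.15. Of 9 kinases 4 (44.4%) were lower and 1 (11.1%) higher. All 9 were at or above the median level, where 19.6% of all genes were lower and 32.8% higher. YES1, a SRC family kinase, fell by 0.75 ± 0.03 (limma adjusted p = 5.5e-07) and MYLK, myosin light chain kinase, by 0.72 ± 0.07.

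On the actin side 7 of 16 genes (43.75%) were lower and 1 (6.25%) higher. All 16 were at or above the median level, where 19.6% of all genes were lower and 32.8% higher. RAC1, the GTPase of membrane ruffles, fell from a mean signal of 3728 to 2021, by 0.88 ± 0.03 (log2, SE; limma adjusted p = 3.4e-07), on all 6 probe sets. ENAH, an actin polymerisation factor at adhesions, fell by 0.55, TPM1, a tropomyosin, by 0.46 on all 9 probe sets, and ACTN4, an alpha-actinin, rose by 0.14. Of 25 genes that regulate integrin activity or traffic, 6 (24%) were lower and 5 (20%) higher. At or above the median level 5 of 22 (22.7%) were lower and 5 (22.7%) higher. The lower share is near the 19.6% of all genes at that level, and the higher share is below their 32.8%. DAB2, a clathrin adaptor for integrin uptake, fell by 0.84 ± 0.04 (limma adjusted p = 1.2e-06) on all 4 probe sets. ITGB1BP1, which competes with talin for the ITGB1 tail, rose by 0.33 ± 0.06, and SHARPIN, another inhibitor of integrin activation, by 0.15. APBB1IP, which brings talin to integrins through RAP1, rose by 0.24, and by 0.13 with probe sets averaged.

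**Figure D4:**
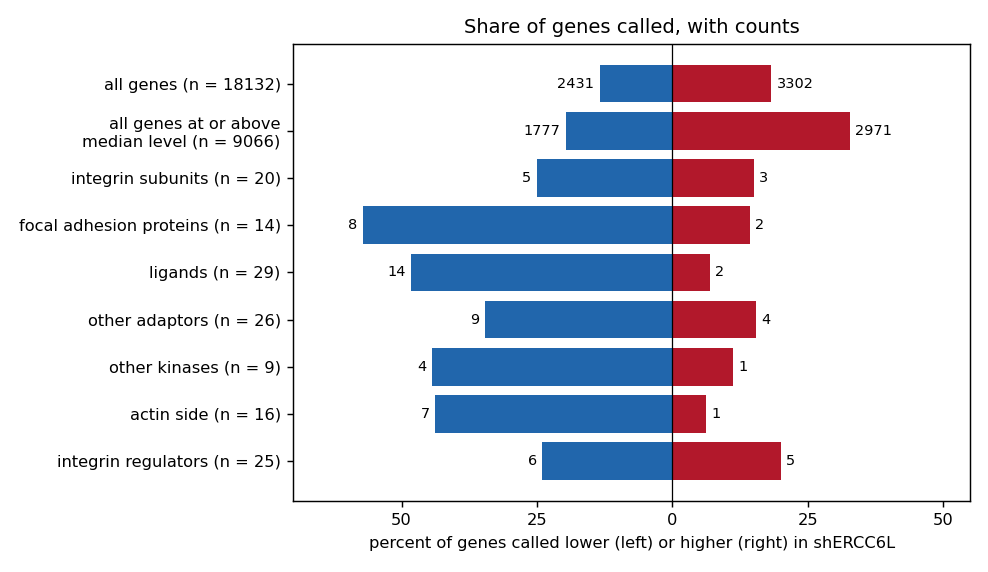
Percent of genes called lower (left) and higher (right) in shERCC6L, with the number of genes beside each bar. The focal adhesion proteins (8 lower of 14) and the ligands (14 lower of 29) have longer bars to the left than all genes (2431 lower of 18132).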

How the data were processed

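The intensities deposited by the authors are linear, with a single value for each probe set on each array, and came from Affymetrix Expression Console per the submitters' processing notes. How background was corrected and how probes were normalized and summarized is not given in the sources. Without detection calls it is not known which dim probe sets exceed background, and precision is limited by having 6 arrays. Probe sets took their gene from GEO's platform annotation, with 44961 of 44988 single-symbol probe sets matched to RefSeq (GRCh38.p14).

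Signals were transformed to log2(signal + 16), and the brightest of a gene's probe sets was kept, which gave 18132 genes. The groups of 3 arrays were compared by lmFit and eBayes of limma 3.58.1 (R 4.3.3), 2-sided, without a block or filter. Tested on simulated data for this comparison (18132 genes, 50 changed at each size), it recovered 100% of changes of 1 and 64% of changes of 0.25 on the log2 scale. Far more genes were called in the data, 3302 higher and 2431 lower, so these rates need not hold there. The rate of false calls was not measured. Pairs of genes were compared by an exact permutation test. Correlations of the deviations of same-numbered arrays were 0.24, -0.14 and -0.01, so they were not treated as pairs. The members, gene lists and tests were chosen with earlier results of these data known. All members may be named, and of the other adhesion genes the 6 largest rises and 6 largest falls among called genes at or above the median level. Others (among them FN1, VCAM1, THBS1, LAMB1, TGFB1I1, TRIP6, NEDD9, DOCK1, ENAH, TPM1, ACTN4 and SHARPIN) were chosen after their values were seen. Of 118 other adhesion genes 110 and of 31 markers 29 were measured.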

Additional observations from a re-analysis of the deposited data

How the results depend on the processing

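Of the 18 calls among members, 7 (ITGA2, ITGAV, TLN1, PARVA, PTK2, BCAR1 and PXN) were made under all 15 alternatives, and 11 were lost under at least 1. Leaving out 1 array at a time gave 3 to 5 higher and 7 to 10 lower members of 34. In those comparisons 15.3% to 17.2% of all genes were higher and 10.5% to 12.4% lower. The other alternatives gave 4 or 5 higher and 11 to 13 lower, the replicate block 5 and 11, quantile normalization 5 and 12, and median centring 5 and 13. The block ended the calls of ITGB2 and ZYX and changed no other member's call. Among the other adhesion genes the counts ran from 11 to 18 higher and from 34 to 43 lower. With probe sets averaged ITGA4 turned from -0.14 to 0.033, ITGB5 minus ITGB3 from -0.06 to 0.053, and ITGB3 became a call. The change of ERCC6L ran from -1.34 to -1.11. The cause of these shifts was not tested. Probe sets near the lowest signals carry little weight.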

Other observations

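The alpha chains found on leukocytes, ITGAL, ITGAM, ITGAX, ITGAD and ITGAE, were also measured. Of these 5 genes limma called 0 in either direction, beside 18.2% of all genes called higher and 13.4% lower. Limma's unadjusted p was under 0.05 for 0 of the 5, beside 7283 of all 18132 genes. Their median log2 fold change was -0.06. With 5 genes, of which 2 reached the median level, a count of 0 does not set them apart from all genes. Limma called 3 of the 7 renal epithelial markers higher (42.9%) and 2 lower (28.6%). All 7 were at or above the median level, where 32.8% of all genes were higher and 19.6% lower. PAX8 rose by 0.34, LHX1, a nephron transcription factor, by 0.42 and KRT18 by 0.13. CDH6, a cadherin of the proximal tubule, fell by 0.50 and EPAS1 by 0.36, while PAX2 and KRT8 were not called.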
